A study of Homo sapiens with 12 samples.

Results

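Androgen-induced genes are transcripts that the androgen receptor, a nuclear hormone receptor, raises in prostate epithelium. A list of 40 such genes was followed here in LNCaP, a prostate cancer cell line that responds to androgen and carries a mutated androgen receptor. Members were found by gene symbol in the platform annotation, and each was read from its probe set of highest mean over the 12 arrays. Of the 40, 35 were named on the arrays, and KLK4, ACSL3, SORD, SLC45A3 and HERC3 were not analysed here. Testing took genes whose signal exceeded the median of all probe sets of an array on 3 or more arrays, which left 32 members and 6821 genes in all (11963 named). The other 3, ORM1, LIFR and SGK1, were dim: ORM1 and LIFR lay above the median on 0 arrays and SGK1 on 2, 1 of them with miR-130a and 1 with miR-205. The cells were transfected with miR-130a, with miR-203, with miR-205 or, as the control, with a scramble microRNA, with 3 arrays per group named as biological replicates, and the labels describe the cell line as an early-stage tumor. All 4 groups are transfected LNCaP cultures. No source used here gives the dose, the time after transfection or the hormone content of the medium.

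On binding androgen the receptor leaves its chaperones, enters the nucleus and binds DNA at androgen response elements, inverted repeats of a short half-site, from which it raises its target genes. The kallikreins and TMPRSS2 are the best known of these in prostate, and serum levels of the KLK3 protein, prostate-specific antigen, are measured in patients. FKBP5, a co-chaperone of steroid receptors, is part of a feedback loop and is also raised by glucocorticoids, whose receptor binds the same kind of element. MicroRNAs act differently: they pair through a seed, bases 2 to 8, with sites in messenger RNAs and lower the level of those messages. The mature strands commonly meant by miR-203 and miR-205 are shown to tell the transfected agents apart, from RefSeq on GRCh38.p14, with the seed in capitals. The labels name no strand, and miR-130a-3p is named only. The miR-203a-3p sequence lies at chr14:104117469-104117490 and that of miR-205-5p at chr1:209432166-209432187, both on the plus strand, and their seeds differ.
hsa-miR-203a-3p: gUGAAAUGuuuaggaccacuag
hsa-miR-205-5p: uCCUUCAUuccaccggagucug

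The promoters of KLK3 and KLK2 are shown because these adjacent genes on chromosome 19 fell together with miR-203 and rose together with miR-205. The 250 bases before each start are from RefSeq on GRCh38.p14, plus strand, at chr19:50854665-50854914 for KLK3 and chr19:50873189-50873438 for KLK2. Capitals mark the best match to the androgen response element AGAACA, any 3 bases, TGTTCT and, nearer the start, the TATA-box letters TTTATA.
KLK3: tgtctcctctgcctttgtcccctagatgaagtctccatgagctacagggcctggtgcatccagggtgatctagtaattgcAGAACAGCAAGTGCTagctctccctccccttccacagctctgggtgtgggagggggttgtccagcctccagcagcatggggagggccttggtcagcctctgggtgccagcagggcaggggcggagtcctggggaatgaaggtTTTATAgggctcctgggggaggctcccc
KLK2: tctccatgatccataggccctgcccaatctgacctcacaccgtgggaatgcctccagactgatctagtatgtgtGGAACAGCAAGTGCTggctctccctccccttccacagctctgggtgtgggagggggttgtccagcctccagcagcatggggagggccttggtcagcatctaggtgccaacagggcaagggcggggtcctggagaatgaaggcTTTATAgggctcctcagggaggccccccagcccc
In KLK3 the match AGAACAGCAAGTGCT differs from the 12 defined bases of the element at 2 and starts 170 bases before the gene. In KLK2 the match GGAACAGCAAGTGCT differs at 3 and starts 176 bases before the gene. In a global alignment the promoters were identical at 205 of 259 columns (79.2%). On both strands of RefSeq windows from 250 bases before to 50 after a start, 1.41% of all 35116 windows held a match with up to 2 mismatches, as did 2 of 48 windows (4.17%) of the tested members, those of KLK3 and PMEPA1. With up to 3 mismatches the shares were 10.8% of all windows and 10.4% of the members' windows, and the members added were FKBP5, HPGD and KLK2. The half-site AGAACA, which is part of the element and was searched on both strands, was in 14.8% of all windows and 10.4% of the members' windows. RefSeq windows were matched for 33 of the 40 members by symbol, 26 of them tested.

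Values are log2 expression from a deposited table of 22277 probe sets, on 1 scale from 2.36 to 13.95, with array medians from 2.76 to 2.78. Differences are given in log2 units as the first group minus the second, ± the standard error (SE) of a limma fit over all 12 arrays. A member passed where its adjusted p (Benjamini-Hochberg over all 6821 genes) was under 0.05, and percentages called "background" are the share of all tested genes that passed in the same way. Across genes, r was 0.992 to 0.997 for pairs of arrays within a group and 0.964 to 0.986 for pairs from different groups. Of 6 luminal prostate markers named on the arrays 5 (KRT8, KRT18, FOLH1, HOXB13 and SPDEF, itself a member) lay above the median on all 12 arrays, and TARP on 0. The receptor gene itself was not analysed here. All 7 leukocyte and endothelial markers lay above the median on 0 arrays. Of 4 basal markers KRT5, KRT14 and KRT15 lay above it on 0 arrays and DST on 12, at 2.93 to 3.37. Of 5 neuroendocrine markers CHGA, SYP, NCAM1 and INSM1 lay above it on 0 and ENO2 on 11, at 2.70 to 2.96. Of 8 fibroblast and smooth muscle markers COL1A2, DCN, LUM and MYH11 lay above it on 0, COL3A1 on 2, VIM on 10 and COL1A1 and ACTA2 on 12. The mean of these 8 was 2.70 to 2.77 log2 in scramble arrays, 2.77 to 2.82 with miR-130a, 2.65 to 2.70 with miR-203 and 2.64 to 2.66 with miR-205, and their part in the results was not tested. The 3′ minus 5′ difference of GAPDH, a sign of RNA quality, ranged from 0.56 to 0.90 in scramble arrays, and this takes in the range of each other group. That of ACTB was larger, at 2.30 to 2.66 in scramble arrays and 2.18 to 2.33 with miR-130a. It was 2.18 to 2.54 with miR-203 and 2.21 to 2.46 with miR-205, and overlapped between scramble and each other group.

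Most tested members fell with miR-203, most rose with miR-205, and with miR-130a members passed in both directions. With miR-203, 20 of 32 tested members (62.5%) fell, where the background of genes that fell was 18.9%, and 1 rose, where the background was 17.3% (36.2% in either direction, against 21 of 32 members). With miR-205, 18 of 32 (56.2%) rose (background 11.3%) and 1 fell (background 14.8%, and 26.1% in either direction, against 19 of 32 members). With miR-130a, 10 of 32 (31.2%) rose (background 12%) and 6 of 32 (18.8%) fell (background 11.6%, and 23.6% in either direction, against 16 of 32 members). The median difference of the members was -0.38 with miR-203, 0.32 with miR-205 and 0.12 with miR-130a, where that of all tested genes was 0.006, -0.0038 and -0.0085. Single arrays moved the counts of 1: without scramble replicate 1 IQGAP2 also rose with miR-203 (adjusted p = 0.00977) and TMPRSS2 also fell with miR-205 (adjusted p = 0.0275), and without miR-203 replicate 2 INPP4B also rose with miR-203 (adjusted p = 0.0399). These counts cover the members that passed the filter on dim probe sets, not the whole list, and the list was chosen with earlier results of these data known. Arrays read total RNA of whole cultures, in which fewer cells of a type and less RNA per cell cannot be told apart.

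On single arrays the mean log2 level of the 32 members was 6.72 to 6.76 in scramble, 6.83 to 6.88 with miR-130a, 6.31 to 6.36 with miR-203 and 7.11 to 7.12 with miR-205. The 4 groups did not overlap in this mean, and the miR-203 arrays were the lowest and the miR-205 arrays the highest. By group mean, 22 members (68.8%) had their lowest level with miR-203, where 25.8% of all tested genes did, and 18 (56.2%) their highest with miR-205, where 23.2% of all tested genes did. Among any of the 4 groups 28 of 32 members differed by the moderated F-test (background 60.8%). SPDEF, CAMKK2, INPP4B and MPHOSPH9 passed in 0 of the 3 comparisons with scramble, 10 members in 1, 8 in 2 and 10 in all 3. The matching shares over all tested genes were not counted, so these numbers have no background. The comparisons share the 3 scramble arrays.

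**Figure D1:**
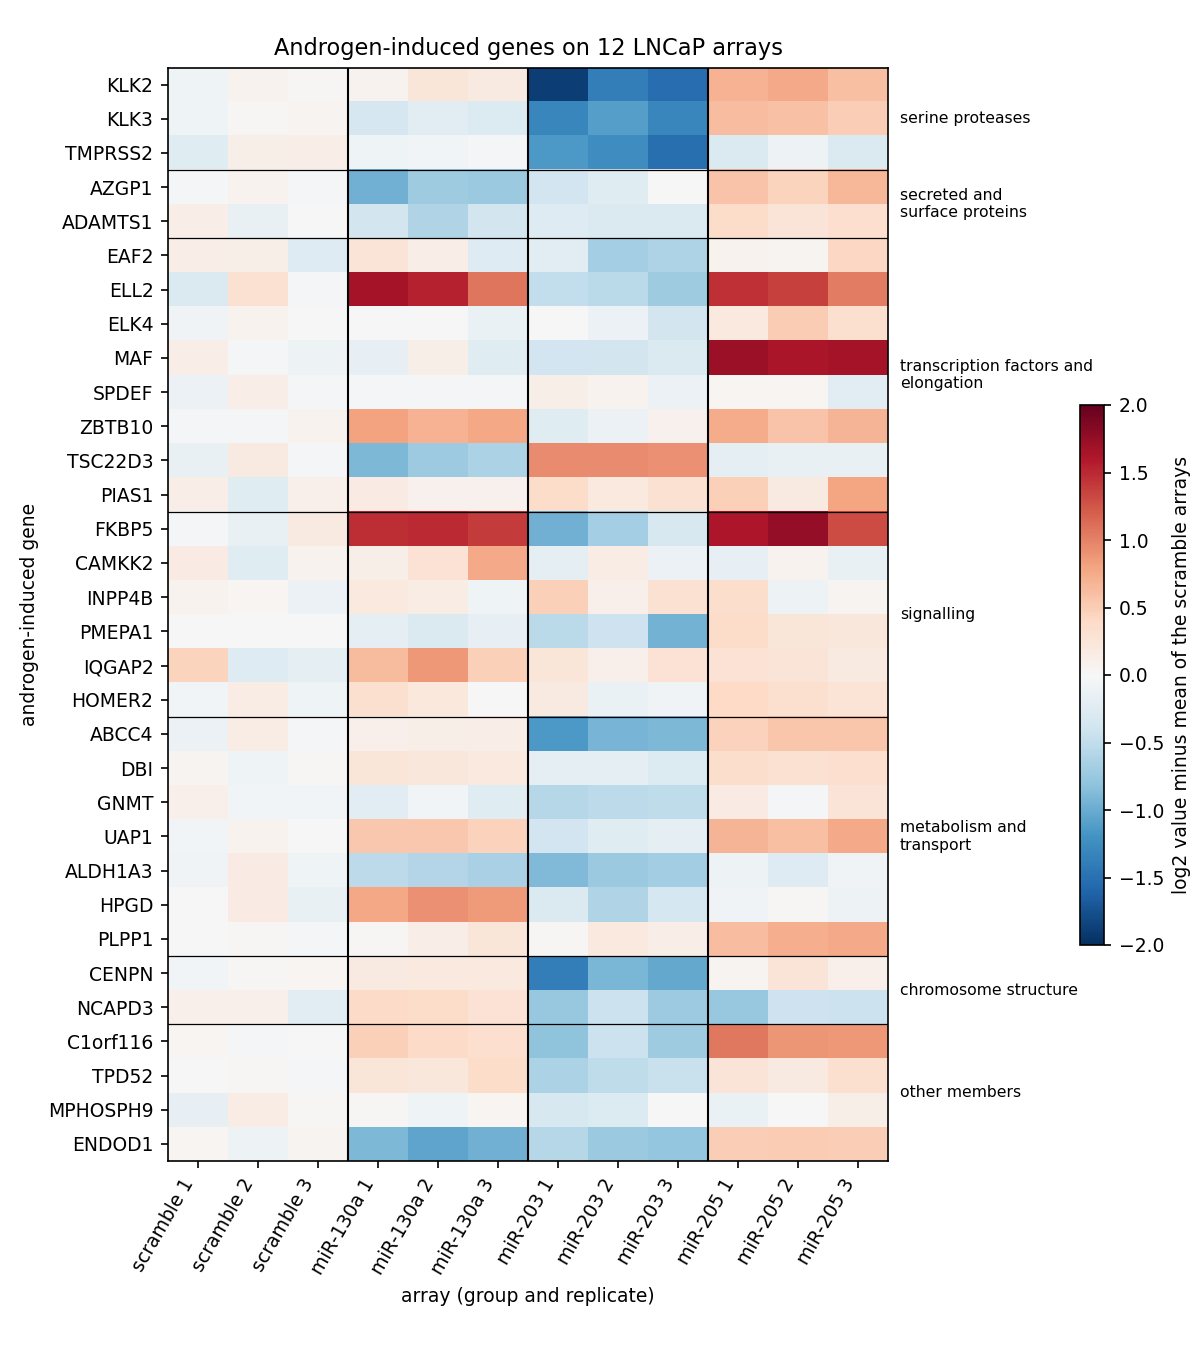
Heat map of the 32 tested androgen-induced genes (rows, grouped by role) on the 12 arrays (columns, by group and replicate). Colour is the log2 value minus the mean of the 3 scramble arrays, from -2 (blue) to 2 (red), and the miR-203 columns are mostly blue for the 20 members that fell, while the miR-205 columns are mostly red for the 18 that rose.

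The 3 tested serine proteases had the largest decreases of any member with miR-203. KLK2, a kallikrein that cleaves other secreted proteases, read 8.73, 8.89 and 8.84 on the scramble arrays, 8.89, 9.06 and 8.99 with miR-130a, 6.94, 7.43 and 7.29 with miR-203 and 9.51, 9.58 and 9.42 with miR-205. The miR-203 arrays were the lowest and the miR-205 arrays the highest, with no overlap with the other groups. KLK2 fell 3.02-fold with miR-203 (-1.60 ± 0.11, adjusted p = 2.82e-07) and rose 1.60-fold with miR-205 (0.68 ± 0.11, adjusted p = 0.000525), and its difference with miR-130a was 0.16 ± 0.11 (adjusted p = 0.319). As the mean of its 3 probe sets KLK2 passed as higher with miR-130a, at 0.21 (adjusted p = 0.0479). KLK3, which encodes prostate-specific antigen, read 11.36, 11.48 and 11.50 on the scramble arrays, 11.11, 11.24 and 11.17 with miR-130a, 10.14, 10.34 and 10.15 with miR-203 and 12.06, 12.04 and 11.93 with miR-205. Its 4 groups did not overlap, in the order miR-203, miR-130a, scramble, miR-205 from lowest to highest. KLK3 fell 2.36-fold with miR-203 (-1.24 ± 0.08) and 1.21-fold with miR-130a (-0.28 ± 0.08, adjusted p = 0.0206), and rose 1.48-fold with miR-205 (0.56 ± 0.08, adjusted p = 0.000165). The miR-130a call of KLK3 was lost without any 1 of miR-130a replicates 1 and 3, scramble replicates 2 and 3 and when read from its most variable probe set (adjusted p from 0.0561 to 0.165). KLK2 and KLK3 are close paralogs and signal shared between their probe sets was not separated.

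TMPRSS2, a membrane serine protease whose promoter drives the common ERG fusion of prostate tumours, read 7.92, 8.28 and 8.30 on the scramble arrays, 8.08, 8.11 and 8.12 with miR-130a, 7.01, 6.93 and 6.66 with miR-203 and 7.87, 8.07 and 7.88 with miR-205. All 3 miR-203 arrays lay below the other 9, and the scramble arrays overlapped with those of miR-130a and miR-205. TMPRSS2 fell 2.46-fold with miR-203 (-1.30 ± 0.11, adjusted p = 2.46e-06). The difference of TMPRSS2 with miR-205 was -0.23 ± 0.11 (adjusted p = 0.164), and with miR-130a -0.06 ± 0.11 (adjusted p = 0.749).

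Of the secreted and surface members, AZGP1 and ADAMTS1 were tested, and both fell with miR-130a (background 11.6%) and rose with miR-205 (background 11.3%). AZGP1, the zinc-alpha-2-glycoprotein of seminal fluid, read 6.18, 6.29 and 6.17 on the scramble arrays, 5.25, 5.50 and 5.47 with miR-130a, 5.83, 5.98 and 6.20 with miR-203 and 6.79, 6.66 and 6.87 with miR-205. The miR-130a arrays were the lowest and the miR-205 arrays the highest, and only the miR-203 and scramble arrays overlapped. AZGP1 fell 1.75-fold with miR-130a (-0.81 ± 0.10, adjusted p = 9.65e-05), rose 1.47-fold with miR-205 (0.56 ± 0.10, adjusted p = 0.00141) and differed by -0.21 ± 0.10 (adjusted p = 0.122) with miR-203, which passed without miR-203 replicate 3 (adjusted p = 0.029). ADAMTS1, a secreted metalloprotease, read 9.70, 9.43 and 9.58 on the scramble arrays, 9.21, 8.96 and 9.20 with miR-130a, 9.32, 9.29 and 9.28 with miR-203 and 9.93, 9.83 and 9.90 with miR-205. Its miR-205 arrays were above all others and its miR-130a arrays below all others. Its differences were -0.45 ± 0.09 with miR-130a (adjusted p = 0.00234), -0.28 ± 0.09 with miR-203 (adjusted p = 0.0246) and 0.32 ± 0.09 with miR-205 (adjusted p = 0.0162). The miR-203 call of ADAMTS1 was lost without any 1 of miR-203 replicates 2 and 3, scramble replicates 1 and 3, when the fit held just the 2 groups compared and with no filter on dim probe sets (adjusted p from 0.0512 to 0.0911), and its miR-205 call without any 1 of miR-205 replicate 1, scramble replicate 2 (adjusted p from 0.0592 to 0.0672).

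Among the 8 tested members that act in transcription, 5 rose with miR-205 and 0 fell, 3 fell with miR-203 and 1 rose, and 2 rose with miR-130a and 1 fell. Over all tested genes 11.3% rose and 14.8% fell with miR-205, 18.9% fell and 17.3% rose with miR-203, and 12% rose and 11.6% fell with miR-130a. MAF, a basic leucine zipper transcription factor, read 6.53, 6.37 and 6.30 on the scramble arrays, 6.24, 6.52 and 6.16 with miR-130a, 6.02, 6.04 and 6.11 with miR-203 and 8.12, 8.03 and 8.07 with miR-205. It had the largest increase of any member with miR-205, 3.19-fold (1.67 ± 0.09, adjusted p = 2.35e-07), and all 3 of those arrays stood above the other 9. With miR-203 MAF fell by 0.34 ± 0.09 (adjusted p = 0.0121), and with miR-130a it differed by -0.10 ± 0.09 (adjusted p = 0.513). As the mean of its 3 probe sets the MAF differences were 0.75 with miR-205 and -0.12 with miR-203, and the latter did not pass (adjusted p = 0.118).

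ELL2, a subunit of the super elongation complex that speeds RNA polymerase II, read 3.27, 3.86 and 3.54 on the scramble arrays, 5.22, 5.09 and 4.62 with miR-130a, 3.06, 3.02 and 2.85 with miR-203 and 5.01, 4.92 and 4.58 with miR-205. Both the miR-130a and the miR-205 arrays were above every scramble array, and every miR-203 array was below them. ELL2 rose 2.68-fold with miR-130a (1.42 ± 0.17, adjusted p = 6.41e-05) and 2.43-fold with miR-205 (1.28 ± 0.17, adjusted p = 0.00014), and fell 1.49-fold with miR-203 (-0.58 ± 0.17, adjusted p = 0.0185). The last call was lost without any 1 of miR-203 replicate 3, scramble replicate 2 and with no filter on dim probe sets (adjusted p from 0.0647 to 0.0933). Averaged with its second probe set, which lay above the median on 0 arrays, ELL2 was at 0.71, 0.65 and -0.29 for the same comparisons. ZBTB10, a zinc finger protein that represses SP transcription factor genes, read 6.57, 6.57 and 6.69 on the scramble arrays, 7.42, 7.31 and 7.39 with miR-130a, 6.36, 6.49 and 6.70 with miR-203 and 7.35, 7.18 and 7.29 with miR-205. Its miR-130a and miR-205 arrays were above those of scramble and miR-203. ZBTB10 rose by 0.76 ± 0.09 with miR-130a (adjusted p = 4.57e-05) and by 0.66 ± 0.09 with miR-205 (adjusted p = 0.000135), and with miR-203 it differed by -0.09 ± 0.09 (adjusted p = 0.436).

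TSC22D3, the glucocorticoid-induced leucine zipper, went against the 20 members that fell with miR-203. Its values were 4.62, 4.94 and 4.73 on the scramble arrays, 3.87, 4.03 and 4.12 with miR-130a, 5.71, 5.71 and 5.68 with miR-203 and 4.59, 4.62 and 4.62 with miR-205. The miR-203 arrays were the highest and the miR-130a arrays the lowest, and the scramble and miR-205 arrays overlapped. TSC22D3 was the 1 member that rose with miR-203, 1.91-fold (0.94 ± 0.09, adjusted p = 4.73e-06), and it fell 1.69-fold with miR-130a, as 5 other members did (-0.76 ± 0.09, adjusted p = 4.72e-05). With miR-205 the difference was -0.15 ± 0.09 (adjusted p = 0.232). Its second probe set, a dimmer one, differed by 0.16 with miR-203 and -0.07 with miR-130a, and the mean of both gave 0.55 and -0.41.

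Smaller changes were seen in the remaining transcription members. ELK4, an ETS factor of the ternary complex, rose with miR-205 by 0.34 ± 0.10 (adjusted p = 0.0252), as did PIAS1, a SUMO ligase that binds nuclear receptors, by 0.48 ± 0.14 (adjusted p = 0.0195). Those calls were lost, for ELK4 without any 1 of miR-205 replicates 2 and 3, scramble replicates 1 and 3 and with no filter on dim probe sets (adjusted p from 0.0545 to 0.0992), and for PIAS1 without any 1 of miR-205 replicates 1 and 3, scramble replicate 2, when the fit held just the 2 groups compared and with no filter on dim probe sets (adjusted p from 0.0525 to 0.0996). ELK4 was close to the array median, with group means from 2.76 to 3.27, and the mean of its 3 probe sets rose by 0.20. EAF2, which associates with ELL proteins, fell with miR-203 by 0.51 ± 0.16 (adjusted p = 0.0256) while its arrays overlapped those of scramble, and this call was lost without any 1 of miR-203 replicates 2 and 3, scramble replicates 1 and 2, when the fit held just the 2 groups compared and with no filter on dim probe sets (adjusted p from 0.0513 to 0.112). SPDEF, an ETS factor of luminal cells, had group means between 6.88 and 6.95 and passed in 0 of the 3 comparisons (differences from -0.04 to 0.02 ± 0.09).

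**Figure D2:**
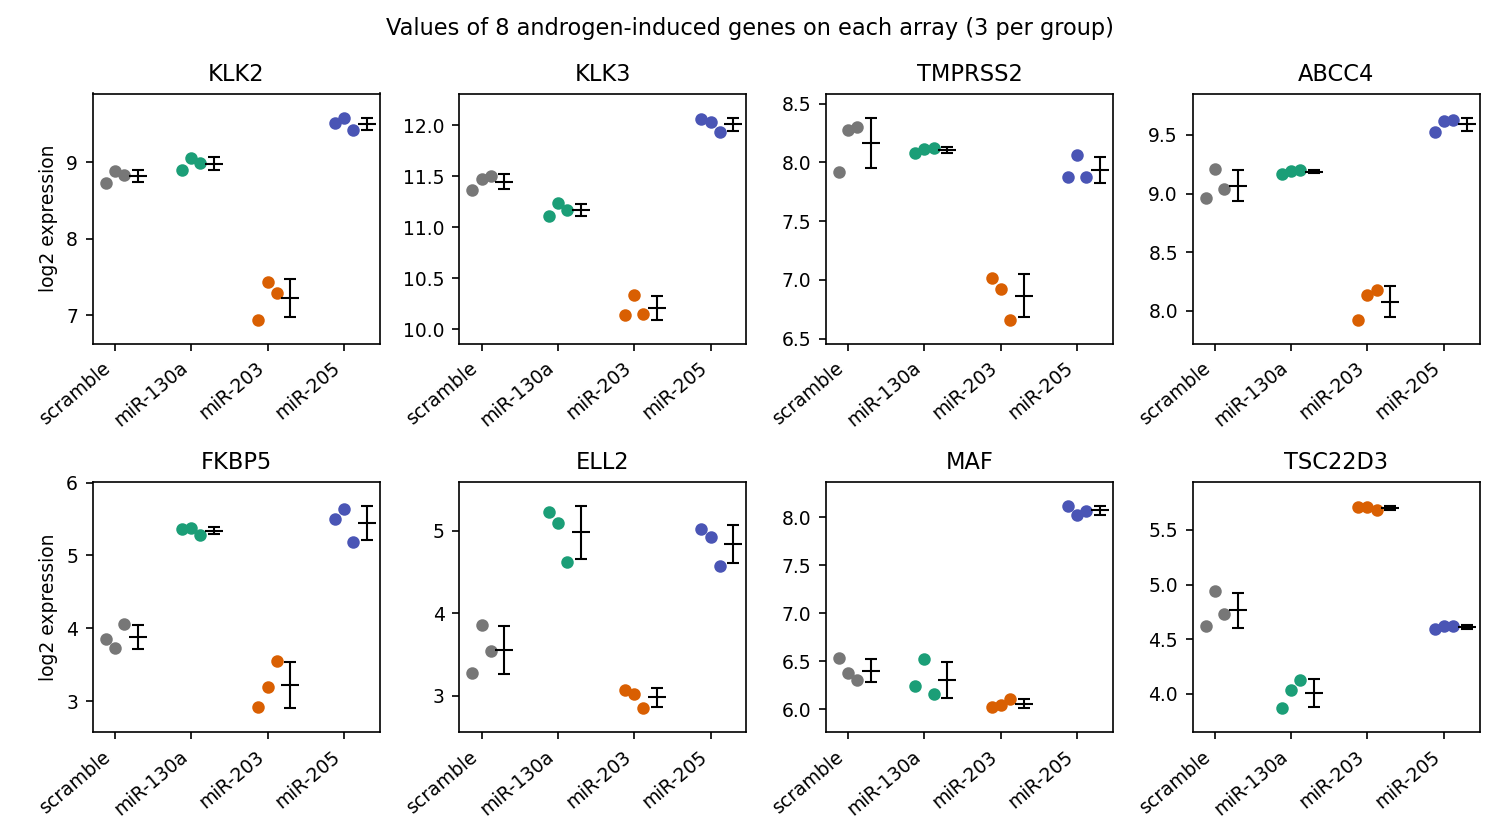
Log2 expression of 8 androgen-induced genes on each array; coloured points are the 3 arrays of a group in replicate order and the black bar beside them is the mean ± SD. KLK2, KLK3, TMPRSS2 and ABCC4 were lowest with miR-203, FKBP5 and ELL2 were high with miR-130a and miR-205, MAF was high with miR-205, and TSC22D3 was high with miR-203; each vertical axis has its own range and does not start at 0.

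Of the 6 tested signalling members, FKBP5 had the largest changes. Its values were 3.86, 3.73 and 4.06 on the scramble arrays, 5.36, 5.38 and 5.28 with miR-130a, 2.92, 3.20 and 3.55 with miR-203 and 5.50, 5.64 and 5.19 with miR-205. Arrays with miR-130a and miR-205 stood more than 1 log2 above every scramble array, and those with miR-203 stood below them. FKBP5 rose 2.95-fold with miR-205 (1.56 ± 0.15, adjusted p = 1.13e-05) and 2.75-fold with miR-130a (1.46 ± 0.15, adjusted p = 1.53e-05), and fell 1.58-fold with miR-203 (-0.66 ± 0.15, adjusted p = 0.0042). IQGAP2, a scaffold protein of the IQGAP family, rose with miR-130a by 0.66 ± 0.16 (adjusted p = 0.00822), a call lost when the fit held just the 2 groups compared and with no filter on dim probe sets (adjusted p from 0.0534 to 0.0538). PMEPA1, which restrains TGF-beta signalling and promotes turnover of the androgen receptor, fell with miR-203 by 0.63 ± 0.11 (adjusted p = 0.000753), and without miR-203 replicate 3, which changes the pooled spread, it passed with miR-130a at -0.22 (adjusted p = 0.0421) and with miR-205 at 0.28 (adjusted p = 0.0115). HOMER2, a postsynaptic scaffold protein, rose with miR-205 by 0.33 ± 0.10 (adjusted p = 0.0341), a call lost without any 1 of miR-205 replicates 1, 2 and 3, scramble replicates 1 and 3 and with no filter on dim probe sets (adjusted p from 0.059 to 0.113). CAMKK2, a kinase upstream of AMPK, and INPP4B, a lipid phosphatase that limits AKT signalling, did not pass against scramble, with differences of 0.39 ± 0.16, -0.05 ± 0.16 and -0.08 ± 0.16 for CAMKK2 and 0.09 ± 0.13, 0.30 ± 0.13 and 0.10 ± 0.13 for INPP4B (given for miR-130a first, miR-205 last). Without miR-130a replicate 1 CAMKK2 passed as higher with miR-130a (adjusted p = 0.0451), and without scramble replicate 1 IQGAP2 passed as higher with miR-205 (adjusted p = 0.0086).

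Of the 7 tested members in metabolism and transport, 6 fell with miR-203 (background 18.9%) and 4 rose with miR-205 (background 11.3%). ABCC4, an exporter of cyclic nucleotides and drugs, read 8.96, 9.21 and 9.04 on the scramble arrays, 9.17, 9.19 and 9.20 with miR-130a, 7.93, 8.13 and 8.18 with miR-203 and 9.53, 9.62 and 9.63 with miR-205. The miR-203 arrays were the lowest and the miR-205 arrays the highest, and the scramble and miR-130a arrays overlapped. It fell 1.99-fold with miR-203 (-0.99 ± 0.08, adjusted p = 2.21e-06) and rose 1.44-fold with miR-205 (0.52 ± 0.08, adjusted p = 0.000577). UAP1, which makes UDP-N-acetylglucosamine, read 9.45, 9.57 and 9.49 on the scramble arrays, 10.05, 10.04 and 9.97 with miR-130a, 9.12, 9.27 and 9.33 with miR-203 and 10.18, 10.10 and 10.26 with miR-205. Its miR-130a and miR-205 arrays were above those of scramble, and its miR-203 arrays below. UAP1 rose by 0.68 ± 0.08 with miR-205 (adjusted p = 3.36e-05) and 0.51 ± 0.08 with miR-130a (adjusted p = 0.000332), and fell by 0.26 ± 0.08 with miR-203 (adjusted p = 0.0152), a call lost without any 1 of miR-203 replicate 1, scramble replicate 2 and when the fit held just the 2 groups compared (adjusted p from 0.0529 to 0.056).

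DBI, the acyl-CoA-binding protein, is among the brightest members, with values of 10.82, 10.68 and 10.79 on the scramble arrays, 11.00, 11.00 and 10.97 with miR-130a, 10.58, 10.59 and 10.49 with miR-203 and 11.12, 11.08 and 11.10 with miR-205. Its changes were small and in the same directions as those of UAP1: 0.33 ± 0.06 with miR-205 (adjusted p = 0.00214), 0.22 ± 0.06 with miR-130a (adjusted p = 0.0244) and -0.21 ± 0.06 with miR-203 (adjusted p = 0.0204). The miR-130a call of DBI was lost without any 1 of miR-130a replicates 1, 2 and 3, scramble replicate 2 and when read from its most variable probe set (adjusted p from 0.0511 to 0.116), and its miR-203 call without any 1 of miR-203 replicate 3, scramble replicates 1 and 3, when the fit held just the 2 groups compared and with quantile scaling (adjusted p from 0.051 to 0.0697). HPGD, which inactivates prostaglandins, read 3.21, 3.39 and 3.07 on the scramble arrays, 3.99, 4.14 and 4.07 with miR-130a, 2.94, 2.62 and 2.87 with miR-203 and 3.15, 3.25 and 3.13 with miR-205. Its miR-130a arrays were the highest, and 1 of its miR-203 arrays was below the array median. HPGD rose 1.80-fold with miR-130a (0.84 ± 0.10, adjusted p = 4.86e-05), fell by 0.41 ± 0.10 with miR-203 (adjusted p = 0.0056; -0.26 as the mean of its 4 probe sets) and differed by -0.05 ± 0.10 (adjusted p = 0.784) with miR-205. ALDH1A3, which makes retinoic acid, read 7.51, 7.73 and 7.48 on the scramble arrays, 7.04, 6.99 and 6.93 with miR-130a, 6.69, 6.83 and 6.88 with miR-203 and 7.47, 7.31 and 7.51 with miR-205. It fell with miR-203 (-0.77 ± 0.09, adjusted p = 2.53e-05) and with miR-130a (-0.59 ± 0.09, adjusted p = 0.000387), with no array of either group as high as a scramble array, and differed by -0.14 ± 0.09 (adjusted p = 0.267) with miR-205.

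PLPP1, a lipid phosphate phosphatase, rose with miR-205 by 0.70 ± 0.08 (adjusted p = 2.5e-05), and its differences with miR-130a and miR-203 were 0.13 ± 0.08 and 0.12 ± 0.08 (neither passed). GNMT, glycine N-methyltransferase, fell with miR-203 by 0.53 ± 0.08 (adjusted p = 0.00036), and its differences with miR-130a and miR-205 were -0.17 ± 0.08 and 0.13 ± 0.08 (neither passed).

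Both tested members with roles in chromosome structure fell with miR-203 (background 18.9%). CENPN, a centromere protein, read 8.68, 8.74 and 8.76 on the scramble arrays, 8.90, 8.92 and 8.92 with miR-130a, 7.34, 7.81 and 7.70 with miR-203 and 8.77, 8.98 and 8.83 with miR-205. All 3 miR-203 arrays lay below the other 9, and the miR-130a and miR-205 arrays lay above those of scramble and overlapped. CENPN fell 2.15-fold with miR-203 (-1.11 ± 0.10, adjusted p = 4.73e-06). Its differences with miR-130a and miR-205 were 0.19 ± 0.10 (adjusted p = 0.213) and 0.14 ± 0.10 (adjusted p = 0.38). NCAPD3, a subunit of condensin II, read 5.67, 5.66 and 5.36 on the scramble arrays, 5.95, 5.93 and 5.85 with miR-130a, 4.81, 5.13 and 4.85 with miR-203 and 4.80, 5.15 and 5.13 with miR-205. It was the 1 member that fell with miR-205, by 0.54 ± 0.12 (adjusted p = 0.00467), and it also fell with miR-203, by 0.64 ± 0.12 (adjusted p = 0.00113), while its miR-130a arrays were above those of every other group. The increase with miR-130a was 0.35 ± 0.12 (adjusted p = 0.0496). This call was lost without any 1 of miR-130a replicates 1, 2 and 3, miR-203 replicate 3, miR-205 replicates 2 and 3 and scramble replicates 2 and 3. It was also lost with no filter on dim probe sets, with the most variable probe set taken for every gene and with an intensity trend (adjusted p from 0.0509 to 0.2 over all of these). NCAPD3 itself has 1 probe set, so that rule changed the other genes of the fit and not its own values.

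Of the 4 remaining tested members, C1orf116, also known as specifically androgen-regulated gene, read 7.26, 7.18 and 7.20 on the scramble arrays, 7.69, 7.59 and 7.55 with miR-130a, 6.41, 6.79 and 6.50 with miR-203 and 8.27, 8.09 and 8.08 with miR-205. The 4 groups did not overlap, in the order miR-203, scramble, miR-130a and miR-205 from lowest to highest. C1orf116 rose 1.91-fold with miR-205 (0.93 ± 0.10, adjusted p = 1.74e-05) and 1.32-fold with miR-130a (0.40 ± 0.10, adjusted p = 0.00937), and fell 1.57-fold with miR-203 (-0.65 ± 0.10, adjusted p = 0.000195). With the mean of its 2 probe sets the miR-130a difference was 0.19. TPD52, a protein of membrane and lipid droplet traffic amplified in prostate tumours, read 10.02, 10.03 and 9.97 on the scramble arrays, 10.25, 10.23 and 10.38 with miR-130a, 9.37, 9.50 and 9.56 with miR-203 and 10.27, 10.19 and 10.33 with miR-205. It fell with miR-203 by 0.53 ± 0.07 (adjusted p = 0.000119) and rose by 0.28 ± 0.07 with miR-130a (adjusted p = 0.0157) and by 0.25 ± 0.07 with miR-205 (adjusted p = 0.0228). The miR-130a call of TPD52 was lost without any 1 of miR-130a replicate 3, scramble replicate 3, when read from its most variable probe set and with the mean of its probe sets (adjusted p from 0.0561 to 0.941), and its miR-205 call without any 1 of miR-205 replicates 1 and 3, scramble replicate 3 (adjusted p from 0.063 to 0.0873). Its probe set of largest variance was at 0.02 with miR-130a and 0.93 with miR-205, and the mean of its 4 probe sets was at 0.52 with miR-205.

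ENDOD1, an endonuclease domain protein, had the largest decrease of any member with miR-130a. Its values were 8.99, 8.85 and 9.01 on the scramble arrays, 8.06, 7.89 and 7.99 with miR-130a, 8.37, 8.21 and 8.18 with miR-203 and 9.44, 9.47 and 9.44 with miR-205. No 2 groups overlapped, and the order was miR-130a, miR-203, scramble and miR-205 from lowest to highest. ENDOD1 fell 1.96-fold with miR-130a (-0.97 ± 0.08, adjusted p = 1.21e-06) and 1.62-fold with miR-203 (-0.70 ± 0.08, adjusted p = 1.85e-05), and rose 1.41-fold with miR-205 (0.50 ± 0.08, adjusted p = 0.000391). MPHOSPH9, a phosphoprotein of the centrosome and cilium, did not pass, with differences from -0.20 to -0.01. Its second probe set differed by -1.06 with miR-203, with no overlap with scramble, and passed when it stood for the gene (adjusted p = 0.000299). MPHOSPH9 also passed with miR-203 without miR-203 replicate 3 (adjusted p = 0.0428).

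**Figure D3:**
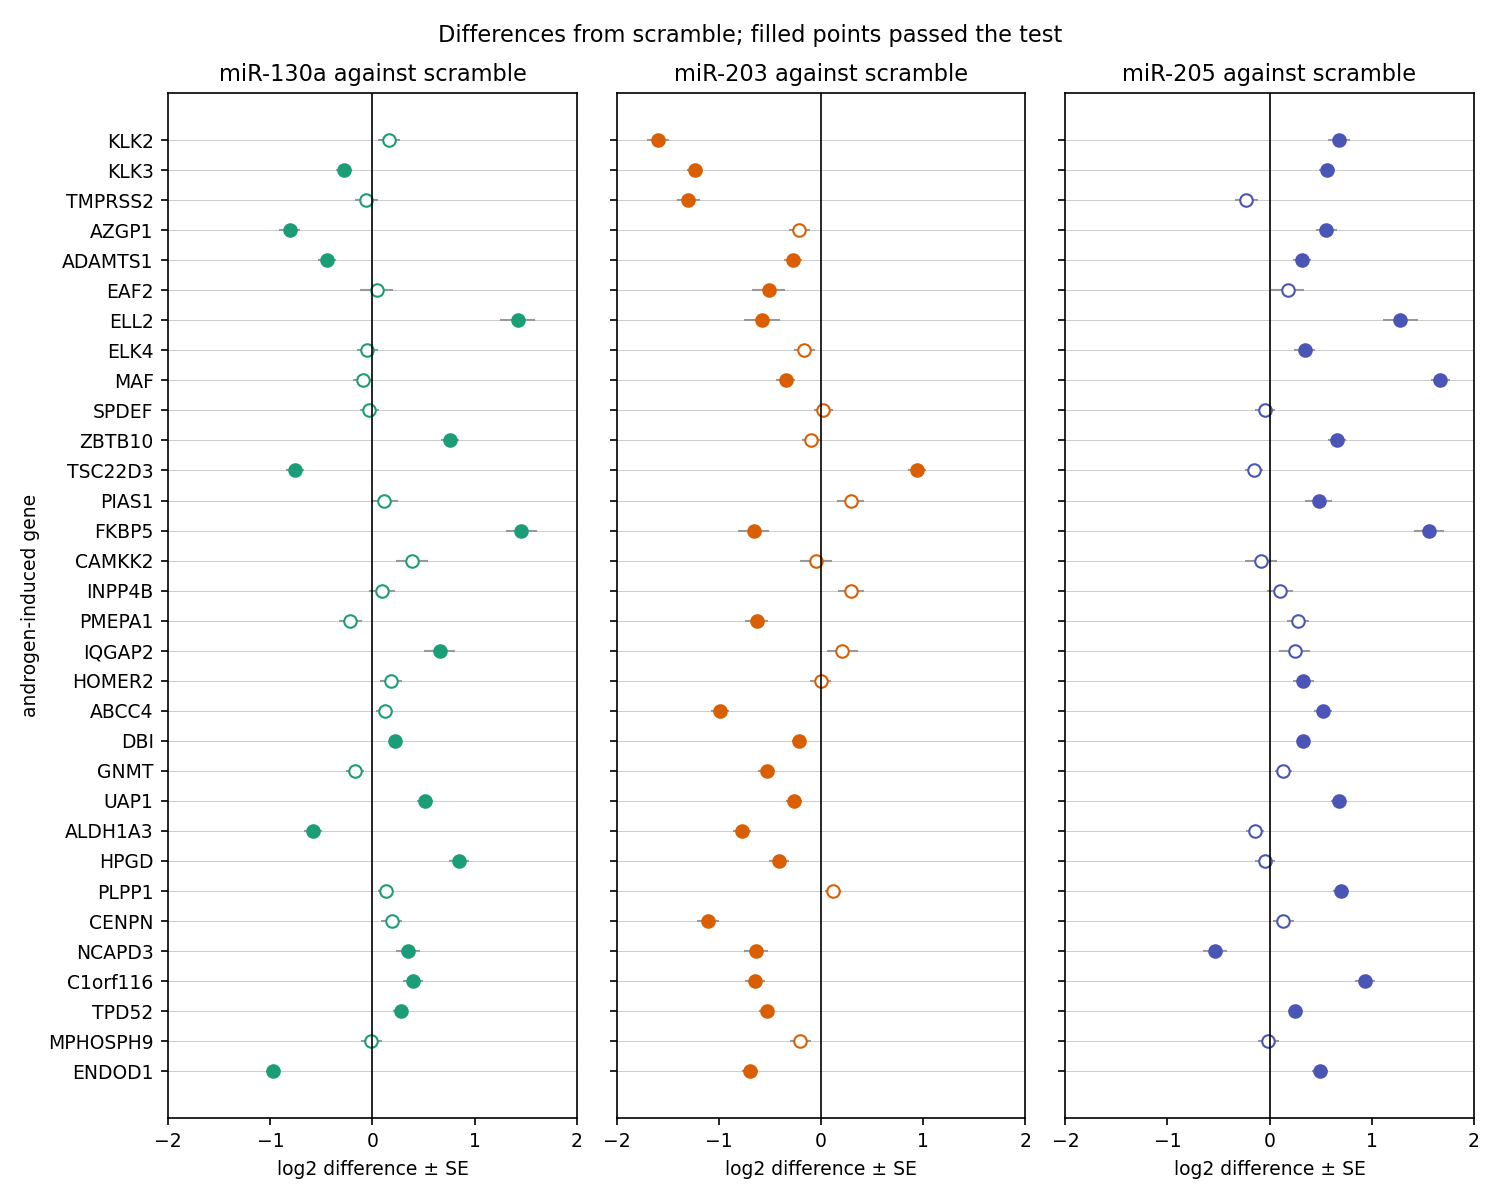
Log2 difference from scramble (points) ± SE of the limma fit (bars) for the 32 tested members, with a panel for each microRNA and 3 arrays per group. Filled points passed at adjusted p under 0.05; most filled points lie left of 0 for miR-203 (20 of 21) and right of 0 for miR-205 (18 of 19), and on both sides for miR-130a (10 right, 6 left).

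With miR-130a, the 6 members that fell while 10 rose were KLK3, AZGP1, ADAMTS1, TSC22D3, ALDH1A3 and ENDOD1. The 10 that rose were ELL2, ZBTB10, FKBP5, IQGAP2, DBI, UAP1, HPGD, NCAPD3, C1orf116 and TPD52, with FKBP5 and ELL2 past 2-fold. With miR-203 the 4 members past 2-fold were KLK2, TMPRSS2, KLK3 and CENPN, all lower, and with miR-205 the 3 past 2-fold were MAF, FKBP5 and ELL2, all higher. Of all 6821 tested genes, 83 passed as higher and 24 as lower past 2-fold with miR-130a. The matching counts were 59 and 114 with miR-203 and 24 and 128 with miR-205. By arrays alone, all miR-203 arrays lay below all scramble arrays for 19 of 32 members (background 22.6%) and above for 4 (21.6%). All miR-205 arrays lay above for 20 (background 18%) and below for 1 (21%), and all miR-130a arrays above for 12 (background 19.3%) and below for 8 (19.9%).

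The microRNA groups were also compared with each other. In these comparisons the scramble arrays enter through the pooled estimate of the spread, the choice of probe set and the filter on dim probe sets. Between miR-203 and miR-205, 25 of 32 members differed (background 37.9%): 24 were lower with miR-203 (background 16.9%) and 1 was higher (background 21%), namely TSC22D3 at 1.09 ± 0.09 (adjusted p = 9.43e-07). KLK2 differed most, 4.85-fold (-2.28 ± 0.11, adjusted p = 8.79e-09), followed by FKBP5 at -2.22 ± 0.15, MAF at -2.02 ± 0.09 and ELL2 at -1.86 ± 0.17. Between miR-130a and miR-203, 22 of 32 differed (background 41.2%): 19 were higher with miR-130a (background 21.1%) and 3 were lower (background 20.1%), namely AZGP1 at -0.60 ± 0.10, TSC22D3 at -1.69 ± 0.09 and ENDOD1 at -0.28 ± 0.08. Between miR-130a and miR-205, 17 of 32 differed (background 33.6%): 14 were lower with miR-130a (background 15.4%), led by MAF at -1.77 ± 0.09, ENDOD1 at -1.47 ± 0.08 and AZGP1 at -1.37 ± 0.10. In that comparison 3 were higher with miR-130a (background 18.2%), HPGD at 0.89 ± 0.10, NCAPD3 at 0.89 ± 0.12 and CAMKK2 at 0.47 ± 0.16 (adjusted p = 0.0343).

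Of the 7 members that rose with both miR-130a and miR-205, C1orf116 was lower with miR-130a than with miR-205 (-0.54 ± 0.10, adjusted p = 0.000764), and the other 6 did not pass between these microRNAs. The share of all tested genes that rose with both was not counted. The 95% interval of the difference, miR-130a minus miR-205, ran from -0.43 to 0.22 for FKBP5 and from -0.23 to 0.51 for ELL2. For ZBTB10 it ran from -0.09 to 0.29 and for TPD52 from -0.13 to 0.18. For UAP1 it ran from -0.33 to 0.00 and for DBI from -0.25 to 0.03, and for both all miR-130a arrays lay below all miR-205 arrays. KLK2 and KLK3 were lower with miR-130a than with miR-205, by 0.52 ± 0.11 (adjusted p = 0.00243) and 0.84 ± 0.08 (adjusted p = 3.3e-06).

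Members were also read from their other probe sets. The 32 tested members had 32 further probe sets, of which 19 lay above the median on all 12 arrays. A low level in any group can remove a probe set under this limit. Where the member had passed, those of the 19 probe sets had the same sign in 12 of 12 cases with miR-203 and in 11 of 11 with miR-205. With miR-130a they had it in 8 of 9, where the exception was C1orf116 (-0.02 against 0.40 ± 0.10). Probe sets of 1 gene share the RNA and are not replicates. The second KLK2 probe set by brightness was at -1.54 with miR-203 and 0.64 with miR-205, and the second KLK3 probe set at -1.27 and 0.52. The sizes parted for CENPN, whose second probe set was at 0.97 with miR-205, where the brighter one was at 0.14 ± 0.10, and CENPN passed with miR-205 when read from the second (adjusted p = 5.13e-05). For CAMKK2 the second probe set was at -0.48 with miR-203 and -0.35 with miR-205, with no overlap with scramble, while the brightest was at -0.05 ± 0.16 and -0.08 ± 0.16. Read from its most variable probe set, CAMKK2 passed as lower with miR-203 (adjusted p = 0.00108) and with miR-205 (adjusted p = 0.0115). The same reading passed as higher with miR-130a (0.27, adjusted p = 0.0427). The mean of its 4 probe sets passed as lower with miR-203 (-0.25, adjusted p = 0.00828) and with miR-205 (-0.22, adjusted p = 0.0196), and did not pass with miR-130a.

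**Figure D4:**
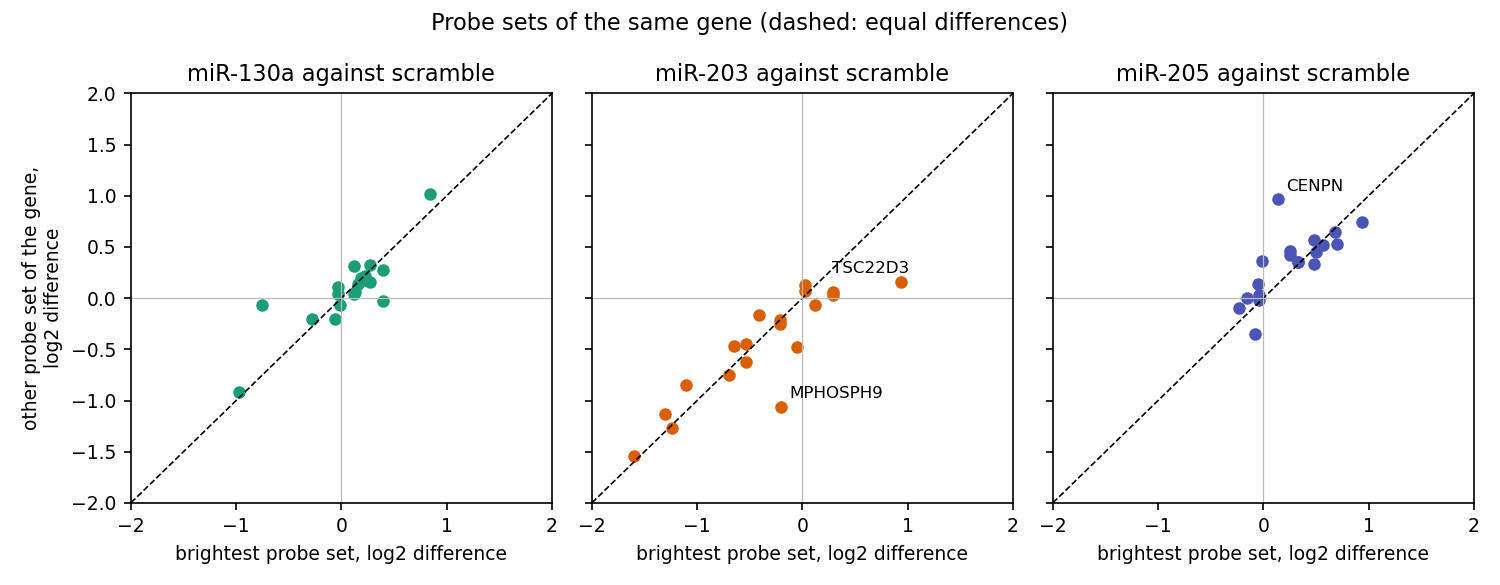
Log2 difference from scramble of the members' other probe sets that lay above the median on all 12 arrays (vertical axis) against that of the brightest probe set (horizontal axis), with a panel for each microRNA and a dashed line of equal differences. Most of the 19 points lie near the line; labels mark genes whose probe sets differ by more than 0.7, namely CENPN (0.97 against 0.14) with miR-205 and MPHOSPH9 (-1.06 against -0.20) and TSC22D3 (0.16 against 0.94) with miR-203.

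Genes around the list were counted in the same fit. The lists were written from general knowledge, but with earlier results of these data known, so their counts are not independent of the data. Of 69 other genes described as androgen-responsive 50 were tested. The background over all tested genes was 12% higher and 11.6% lower with miR-130a, 17.3% and 18.9% with miR-203 and 11.3% and 14.8% with miR-205. With miR-203, 18 of these (36%) fell and 6 (12%) rose, with a median of -0.19, and with miR-205 22 (44%) rose and 5 (10%) fell, with a median of 0.21. With miR-130a 16 (32%) rose and 5 (10%) fell, with a median of 0.14. The smaller count in each comparison was below the background share of its direction. APPBP2, a protein that binds the amyloid precursor protein, fell with miR-203 by 1.56 ± 0.10 and rose with miR-205 by 0.68 ± 0.10, and NDRG1, a stress-responsive gene of the NDRG family, rose with miR-205 by 1.14 ± 0.11. With miR-130a the largest increase was in HMGCS1, of cholesterol synthesis, at 0.99 ± 0.07, and SEC24D, a coat protein of vesicles that leave the endoplasmic reticulum, fell with both miR-203 (-1.26 ± 0.25) and miR-130a (-0.75 ± 0.25, adjusted p = 0.0419).

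Of 15 genes described as lowered by androgen 7 were tested. With miR-203, 5 higher and 1 lower passed (background 17.3% and 18.9%), with a median of 0.72, among them the chemokine receptor ACKR3 at 1.19 ± 0.07, CAMK2N1, an inhibitor of CaM kinase II, at 1.09 ± 0.10, and UGT2B15 and UGT2B17, which conjugate androgens, at 0.89 ± 0.09 and 0.72 ± 0.13. With miR-205, 1 higher (14.3%, near the background of 11.3%) and 0 lower (background 14.8%) passed, with a median of -0.02, and the 1 was ACKR3 at 0.30 ± 0.07. With miR-130a, 2 higher and 4 lower passed (background 12% and 11.6%), with a median of -0.35, and UGT2B15 rose (0.95 ± 0.09) while DDC, which makes dopamine and serotonin, fell (-0.74 ± 0.08). UGT2B15 and UGT2B17 are close paralogs, and signal shared between their probe sets was not separated.

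Glucocorticoid-induced genes that are not members gave 4 higher and 1 lower of 10 tested with miR-130a, 2 higher and 3 lower with miR-203 and 3 higher and 3 lower with miR-205, with medians of 0.13, -0.08 and -0.04. The matching backgrounds were 12% higher and 11.6% lower, 17.3% and 18.9%, and 11.3% and 14.8%, and 1 gene is 10% of this list. The metallothionein genes MT2A and MT1X fell with miR-205 by 1.28 ± 0.10 and 1.11 ± 0.11, and DDIT4, an inhibitor of mTOR, fell with miR-130a by 0.90 ± 0.09. Of 35 genes for the receptor's partners and cofactors 28 were tested, with 2 higher and 0 lower with miR-130a, 6 higher and 4 lower with miR-203 and 3 higher and 4 lower with miR-205. These shares, 21.4% higher and 14.3% lower with miR-203 and 10.7% and 14.3% with miR-205, were near those over all genes, and with miR-130a they were 7.14% and 0%. Their medians, 0.06, 0.03 and -0.01, lay near those of all tested genes. MED1, a Mediator subunit that binds nuclear receptors, rose with miR-203 by 1.36 ± 0.14 and with miR-205 by 0.88 ± 0.14, and SRD5A1, which converts testosterone to dihydrotestosterone, fell with miR-203 by 0.78 ± 0.09.

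**Figure D5:**
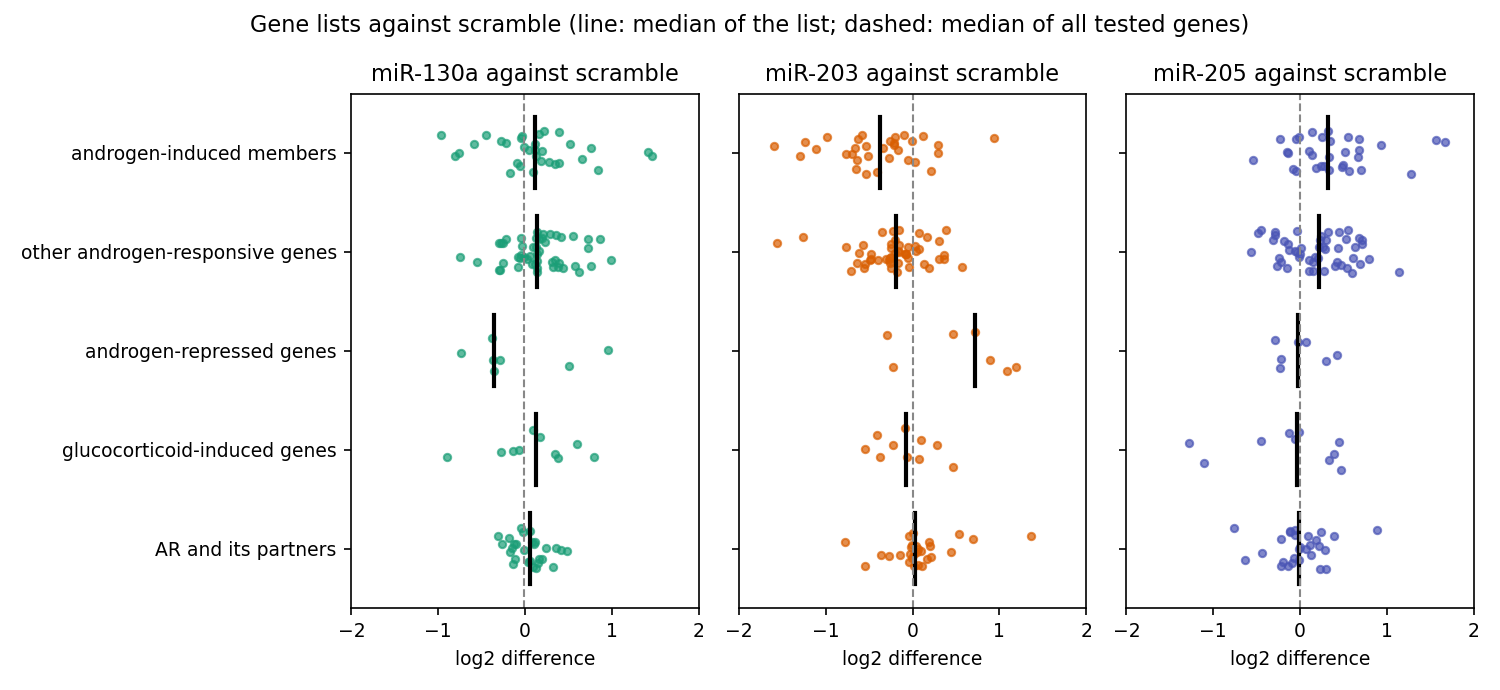
Log2 difference from scramble of each tested gene (points) in the androgen-induced members and 4 lists beside them, with a panel for each microRNA. Black lines are the median of a list and the dashed line that of all tested genes; the members' median lies at -0.38 with miR-203 and 0.32 with miR-205, and that of the androgen-repressed genes at 0.72 with miR-203.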

How the data were processed

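Total RNA of 12 LNCaP cultures was read on 1 array each, 3 arrays for each of 4 groups taken from the labels, which number them as biological replicates. The authors deposited log2 expression for 22277 probe sets. R 2.9.0, RMA and limma are named, without their roles, per the submitters' processing notes, and the background method is not given in the sources used here. No read or spot depth is given, and the 3 arrays per group limit the precision.

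Probe sets with 1 gene symbol in the platform annotation were kept (19070; 1043 had several and 2164 none), and each gene was read from its probe set of highest mean. Genes whose signal exceeded the median of all probe sets of an array on 3 or more arrays were fitted with limma 3.58.1 in R 4.3.3 (lmFit and eBayes over all 12 arrays, 8 residual and 4.84 prior degrees of freedom). P-values were adjusted by Benjamini-Hochberg over all 6821 genes of a comparison at a threshold of 0.05. They set the difference of 2 groups against the spread between cultures within groups, pooled over all 12 arrays and moderated by eBayes. The script was tested on simulated data. An exact test of 3 arrays against 3 cannot go below p = 0.1, so none was used.

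The members and the lists beside them were chosen with earlier results of these data known. Values on every array are given for KLK2, KLK3, TMPRSS2 and FKBP5, for up to 4 members with the largest increases and decreases per comparison, and for members that passed in opposite directions with 2 microRNAs. From each list beside the members up to 4 genes per comparison with the largest changes could be named. MicroRNA and promoter sequences were taken from RefSeq tables on GRCh38.p14 and promoters were aligned with Biopython 1.88. Alternatives were the replicate number as a block, fewer arrays, other filters, probe set rules, scalings, weights and priors, and leaving out genes with equal values on arrays of a group.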

Additional observations from a re-analysis of the deposited data

Results flagged for a closer look

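Members that passed in opposite directions with 2 microRNAs, and that also differed between those microRNAs in the limma fit, are listed with the first microRNA minus the second. How many of all tested genes meet these conditions was not counted. Over all tested genes 41.2% differed between miR-130a and miR-203, 33.6% between miR-130a and miR-205 and 37.9% between miR-203 and miR-205. Between miR-130a and miR-203 there were 9 such members. Those higher with miR-130a were ELL2 (2.00 ± 0.17), FKBP5 (2.12 ± 0.15), DBI (0.44 ± 0.06), UAP1 (0.78 ± 0.08), HPGD (1.26 ± 0.10), NCAPD3 (0.98 ± 0.12), C1orf116 (1.04 ± 0.10) and TPD52 (0.81 ± 0.07). The 1 lower with miR-130a was TSC22D3 (-1.69 ± 0.09). Adjusted p in the limma fit ran from 2.72e-08 to 0.000156 for these members.

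Between miR-130a and miR-205 there were 5. The 1 higher with miR-130a was NCAPD3 (0.89 ± 0.12). Those lower with miR-130a were KLK3 (-0.84 ± 0.08), AZGP1 (-1.37 ± 0.10), ADAMTS1 (-0.76 ± 0.09) and ENDOD1 (-1.47 ± 0.08). Adjusted p in the limma fit ran from 1.7e-08 to 7.63e-05 for these members.

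Between miR-203 and miR-205 there were 12. Those lower with miR-203 were KLK2 (-2.28 ± 0.11), KLK3 (-1.80 ± 0.08), ADAMTS1 (-0.59 ± 0.09), ELL2 (-1.86 ± 0.17), MAF (-2.02 ± 0.09), FKBP5 (-2.22 ± 0.15), ABCC4 (-1.51 ± 0.08), DBI (-0.55 ± 0.06), UAP1 (-0.94 ± 0.08), C1orf116 (-1.58 ± 0.10), TPD52 (-0.79 ± 0.07) and ENDOD1 (-1.19 ± 0.08). Adjusted p in the limma fit ran from 4.07e-09 to 0.000154 for these members.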

How the results depend on the processing

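Across 23 alternatives for each comparison with scramble, 11 of 16 calls with miR-130a, 15 of 21 with miR-203 and 14 of 19 with miR-205 held under every alternative in which the gene was tested, and 0 called values reversed. The calls that were lost are named in the results with their arrays. The count of members that rose with miR-203 was 2 in place of 1 with the replicate number as a block (INPP4B added), 0 without genes that have equal values on arrays of a group (which leaves TSC22D3 untested), and 1 to 2 with an array left out (2 without miR-203 replicate 2 or scramble replicate 1). The count that fell with miR-205 was 2 in place of 1 with the most variable probe set, with probe sets averaged per gene and with array weights, and 1 to 2 with an array left out (2 without scramble replicate 1). The member added was CAMKK2 for both probe set rules and TMPRSS2 otherwise. Other counts stayed within 1.5 times: with miR-130a 7 to 10 rose and 5 to 7 fell, with miR-203 16 to 22 fell, and with miR-205 14 to 19 rose. Same-numbered arrays deviated together only weakly on average (mean r = 0.03, at most 0.31, over 0.1 in 3 of 18 pairs). For other-numbered arrays the mean r was -0.02, with 2 of 36 pairs over 0.1. The numbers were not taken as pairs. With the block 16, 22 and 19 members were called where the fit without it had 16, 21 and 19 (miR-130a, miR-203, miR-205). Genes close to the shared floor of the values, such as ELK4 and HPGD, have little signal over background. With miR-203 the arrays of ELL2 (2.85 to 3.06) and FKBP5 (2.92 to 3.55) also came close to the array medians of 2.76 to 2.78.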
